A study of Mus musculus with 12 samples.

Results

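The 35 genes described here belong to the fetal-like and regenerative programme of the gut epithelium and to the YAP pathway. They were chosen as a list of 37 symbols, in which Ctgf and Ccn2, and Cyr61 and Ccn1, are older and newer names of the same gene, and each was matched by its Ensembl identifier to 1 row of the deposited table of 48795 genes. All 35 passed the filter on low values, which kept the 14856 genes with 10 or more normalized counts in 3 or more libraries. The libraries came from total RNA of C57BL/6 mouse colon organoids, which are epithelial cultures grown in Matrigel from isolated crypts. The 4 groups of 3 libraries were AhR-/- organoids after differentiation (KO differentiated), WT organoids after differentiation (WT differentiated), AhR-/- organoids in stem cell condition (KO stem) and WT organoids in stem cell condition (WT stem). The stem condition was WENR medium, which holds Wnt-3A beside Rspondin-1, Noggin and EGF, and the differentiated condition was 3 days in ENR medium, without Wnt-3A. The labels call the KO organoids AhR deficient and give neither the allele, the sex nor the age of the mice. Whether replicates are separate animals or cultures is not given, and p-values cover only the spread seen among these 12 libraries.

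YAP and its paralogue TAZ are transcriptional co-activators that are held in the cytoplasm when the Hippo kinases LATS1 and LATS2 phosphorylate them. Once in the nucleus they bind DNA through the TEAD family of transcription factors and switch on target genes, several of which encode inhibitors of YAP itself. In the mouse colon, YAP activity accompanies repair after injury, when the epithelium takes on genes of the fetal gut such as Ly6a and the annexins, and Clu marks a rare stem cell population that appears after damage. AhR is a ligand-activated transcription factor that senses dietary and microbial compounds.

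Depth lay between 25.1 and 99.0 M recovered reads per library. Epithelial markers were high in all 12 libraries. Summed over 8 genes, normalized counts were 1424817 to 1497412 in KO differentiated, 1702919 to 1839509 in WT differentiated, 698767 to 795852 in KO stem and 816686 to 882499 in WT stem libraries. KO against WT, 5 of the 8 were lower in the differentiated condition (13.9% of all genes), 1 in the stem condition (3.09%), and none higher. Fibroblast markers were low in most libraries: their sum over 12 genes reached 640 in KO stem library 3 and 22047 in WT stem library 1, against 51.4 to 169 in the other 10 libraries, although Dcn and Lum were at 0 in WT stem library 1. Results on members that use the WT stem group are therefore also given without WT stem library 1 where its omission changed a call, and the counts over the 35 genes are given both ways. Cyp1b1, a classical AhR target, had 13.0 to 20.6 normalized counts in KO differentiated libraries against 574 to 680 in WT differentiated libraries, and 269 to 571 in KO stem libraries against 7479 to 8502 in WT stem libraries. Ahr itself had 2503 to 2831 normalized counts in KO stem libraries against 1746 to 1909 in WT stem libraries, so that its total count does not check the deletion. In bulk RNA, a lower share of cells that use a gene and less of its RNA per cell cannot be told apart.

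The DNA element that TEAD factors recognise, GGAATG or its reverse complement CATTCC, was searched in the RefSeq promoter windows of the GRCm38.p6 assembly, which run from 250 bases before to 50 bases after a transcript start. Windows were found for 25 of the 35 genes. The element was in 17 of their 31 windows (54.8%), against 14.7% of all 32851 windows of the same length. The AP-1 element TGANTCA was in 4 of the 31 windows (12.9%, against 7.81% of all windows), and the AhR core GCGTG in 10 (32.3%, against 32.4%). These are letter matches on either strand and describe the windows without showing binding. The matches shown here were taken from genes whose counts are described below, as examples that touch no annotated exon, with the TEAD element in capitals and 20 bases on each side.
Cyr61, chr3:145650063-145650108, minus strand: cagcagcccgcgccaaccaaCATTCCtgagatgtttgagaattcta
Ajuba, chr14:54577800-54577867, minus strand: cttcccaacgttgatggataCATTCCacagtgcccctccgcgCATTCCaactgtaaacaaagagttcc
Crim1, chr17:78200149-78200194, plus strand: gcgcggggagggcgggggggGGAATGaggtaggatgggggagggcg
Ptpn14, chr1:189728102-189728147, plus strand: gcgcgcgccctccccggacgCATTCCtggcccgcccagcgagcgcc
Il33, chr19:29924962-29925007, plus strand: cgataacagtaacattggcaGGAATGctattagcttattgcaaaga
Yap1, chr9:8004712-8004757, minus strand: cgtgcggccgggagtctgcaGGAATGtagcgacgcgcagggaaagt
Wwtr1, chr3:57576021-57576066, minus strand: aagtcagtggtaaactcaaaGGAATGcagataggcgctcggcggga
Vgll4, chr6:114969260-114969305, minus strand: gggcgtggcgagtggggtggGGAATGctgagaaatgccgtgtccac
In GENCODE vM21 the stretch at Vgll4 lies in an intron, before a downstream start of the gene, and the other 7 lie upstream of the gene. Ajuba has the element at 2 places in 1 stretch. The Vgll4 window also has the AhR core at 5 places, the most among the 25 genes.

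With both directions counted together, the 35 genes changed on withdrawal of Wnt-3A about as often as genes at large. In both genotypes more of them were higher than lower. In KO organoids, 15 were higher in the differentiated than in the stem condition and 8 were lower, where 34.1% and 33.6% of all genes tested were higher and lower. In WT organoids, 18 were higher and 9 lower, with 36.3% and 35.9% of all genes. The median log2 change of the 35 was 0.22 in KO and 0.19 in WT organoids, and 0.013 over all genes in either genotype. Calls were made in limma at p under 0.05 after Benjamini-Hochberg adjustment, fitted on log2(normalized count + 1) of all genes tested, and a gene is called where it passed in that fit of 12 libraries with no replicate block. Every change given below is on that scale with its standard error and 3 libraries per group. Without WT stem library 1, 20 genes were higher and 8 lower in WT organoids, where 36.8% and 36.0% of all genes were.

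**Figure D1:**
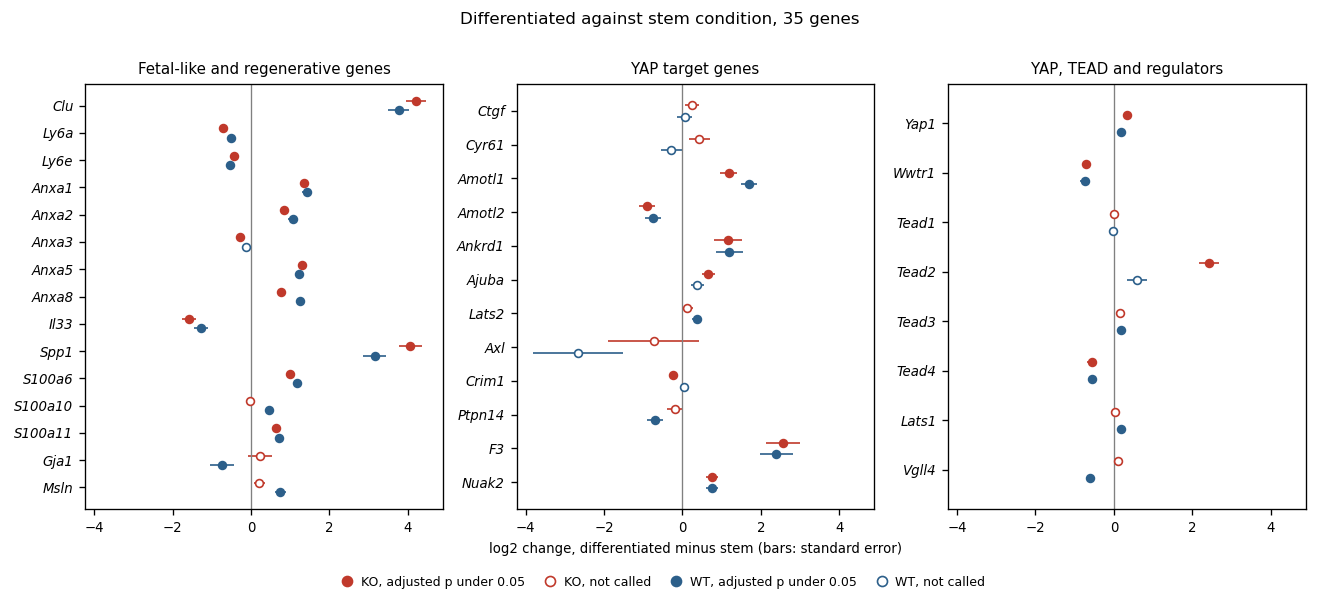
Log2 change between the differentiated and the stem condition (x axis, differentiated minus stem) for the 35 genes in 3 groups, in KO (red) and WT (blue) organoids, with standard errors as bars and filled points for an adjusted p under 0.05. Clu and Spp1 lie furthest right in both genotypes, Il33 lies furthest left among the fetal-like genes, and Tead2 is further right in KO (2.42) than in WT (0.59).

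Fewer of the 35 genes were called between KO and WT organoids than between conditions, and the same held over all genes tested. In the differentiated condition 11 of the 35 genes were higher in KO organoids and 4 lower, where 13.8% and 13.9% of all genes tested were higher and lower. In the stem condition 8 were higher (3.48% of all genes) and none lower (3.09% of all genes). DESeq2 on recovered reads called 1 gene lower in the stem condition (1144 over all genes) and edgeR none (308 over all genes). The median log2 change, KO minus WT, was 0.14 over the 35 genes and 0.024 over all genes in the differentiated condition, and 0.17 over the 35 and -0.040 over all genes in the stem condition. The KO effect differed between the conditions for 3 genes, being higher in the differentiated condition for Tead2 and Vgll4 (5.12% of all genes) and lower for S100a10 (3.58%). The differentiated and stem comparisons use separate libraries but share the estimate of spread from a common limma fit. Same-numbered stem and differentiated libraries also correlated in their deviations, at 0.191 to 0.286 in KO and 0.0552 to 0.145 in WT. The comparisons are therefore not independent of each other.

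The stem result depended on single libraries. The count of genes higher in KO stem organoids was 0 without KO stem library 1, 2 without KO stem library 2, 9 without KO stem library 3, 2 without WT stem library 2 and 4 without WT stem library 3. None of the 8 calls stayed under each of these omissions. Over all genes tested, 517 were higher with 12 libraries, and 193, 223, 469, 280 and 417 under these omissions, in the same order. Without WT stem library 1, 11 genes were higher (4.39% of all genes) and 1 lower (4.8%). In the differentiated condition the count of higher genes was 6 without WT differentiated library 3 and 9 to 12 without any other differentiated library. In the fit without WT stem library 1, 13 were higher and 4 lower, and of all 14759 genes tested 2880 and 2821 were. The count of lower genes was 3 without KO differentiated library 2, 2 without WT differentiated library 3, 1 without KO differentiated library 3, and 0 without KO differentiated library 1 or without WT differentiated library 1 or 2. Over all genes tested, 2045 were higher and 2058 lower with 12 libraries. Without each differentiated library, 1095 to 1774 were higher and 1138 to 1869 lower. The calls of Gja1, Ly6e, Ptpn14, Spp1, Tead2 and Vgll4 stayed in every such repeat. After quantile normalization 13 genes were higher and 0 lower in KO differentiated organoids, where 1983 and 1667 of all genes tested were. In KO stem organoids, 4 were higher with no filter on low values and 1 with only the stem libraries in the fit. Over all genes these counts were 406 of 26118 and 166.

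**Figure D2:**
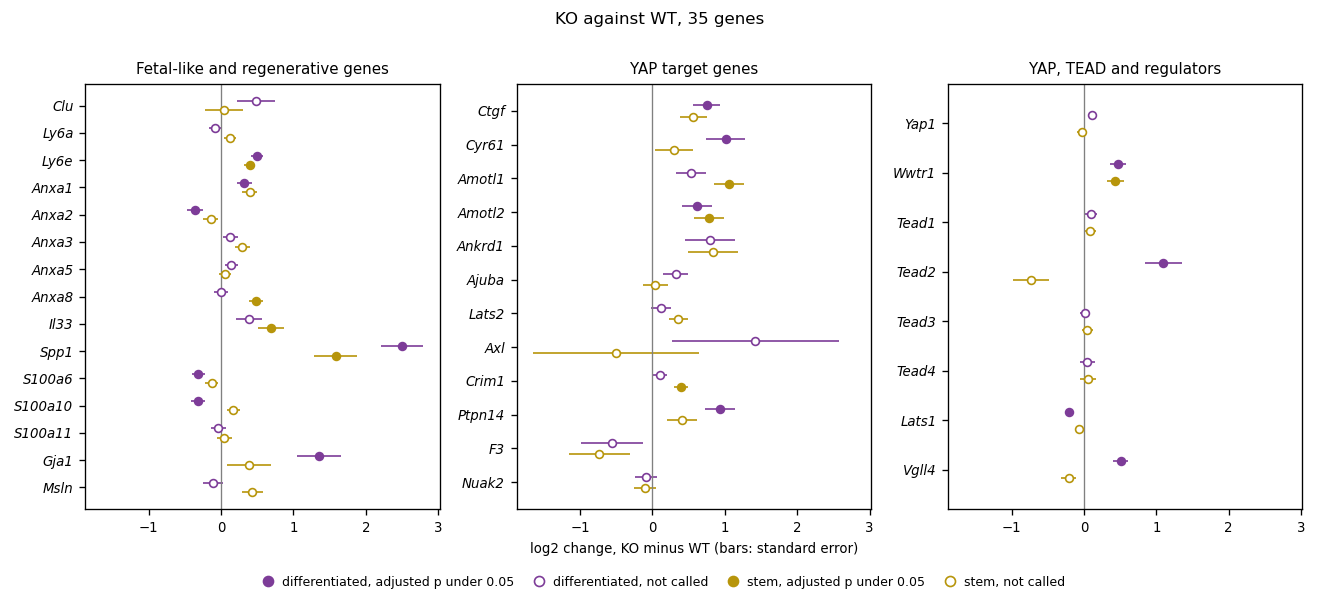
Log2 change between KO and WT organoids (x axis, KO minus WT) for the 35 genes in 3 groups, in the differentiated (purple) and the stem (yellow) condition, with standard errors as bars and filled points for an adjusted p under 0.05. Spp1 lies furthest right in both conditions (2.50 and 1.59), and Tead2 is right of 0 in the differentiated condition (1.10) and left of it, uncalled, in the stem condition (-0.73).

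Among the 15 fetal-like and regenerative genes, 8 were higher and 4 lower in differentiated KO organoids than in KO stem organoids, and 10 were higher and 4 lower in the WT comparison. Of all genes tested, 34.1% were higher and 33.6% lower in KO, and 36.3% and 35.9% in WT. Clu, which encodes the secreted chaperone clusterin, made the largest change. Normalized counts of Clu were 641206, 461945 and 408551 in KO differentiated libraries, 353488, 399541 and 316177 in WT differentiated libraries, 36649, 25929 and 20150 in KO stem libraries and 36474, 26220 and 18493 in WT stem libraries. All differentiated libraries were above all stem libraries, and the means differed 18.3-fold in KO and 13.2-fold in WT organoids. Clu took 0.767% to 1.22% of all counts in KO differentiated libraries, 0.556% to 0.700% in WT differentiated libraries, 0.0382% to 0.0687% in KO stem libraries and 0.0333% to 0.0677% in WT stem libraries. The log2 change was 4.21 ± 0.27, adjusted p = 1.10e-07 in KO and 3.77 ± 0.27, adjusted p = 1.68e-07 in WT. KO against WT, Clu was at 0.48 ± 0.27, adjusted p = 0.198 in the differentiated condition, where the ranges did not overlap but the call was not made, and at 0.038 ± 0.27, adjusted p = 0.949 in the stem condition.

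Spp1, the gene for the secreted phosphoprotein osteopontin, was called in all 4 pairwise comparisons. Normalized counts of Spp1 were 1159, 463 and 496 in KO differentiated libraries, 117, 112 and 109 in WT differentiated libraries, 42.6, 33.8 and 36.6 in KO stem libraries and 13, 9.97 and 12.7 in WT stem libraries. KO differentiated library 1 stood well above the other KO libraries, and none of the 4 groups overlapped another. The WT stem values rest on only 8, 9 and 11 recovered reads, which limits the comparisons with that group. Spp1 was higher in KO than in WT organoids in the differentiated condition (2.50 ± 0.30, adjusted p = 0.000501), by a ratio of means of 6.25, and in the stem condition (1.59 ± 0.30, adjusted p = 0.0102), by a ratio of 3.16. The stem call was lost without KO stem library 1 (adjusted p up to 0.0516). Differentiation raised Spp1 by 4.07 ± 0.30, adjusted p = 3.39e-07 in KO and by 3.15 ± 0.30, adjusted p = 1.79e-06 in WT organoids. The difference between the KO effects in the 2 conditions was not called (0.92 ± 0.42, adjusted p = 0.186).

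Ly6a, better known as Sca-1, and Ly6e encode small surface proteins with a lipid anchor, and both fell on differentiation. Ly6a had normalized counts of 86450, 90339 and 83582 in KO differentiated libraries, 88494, 99201 and 89020 in WT differentiated libraries, 151137, 150973 and 129281 in KO stem libraries and 124184, 134707 and 137008 in WT stem libraries. All differentiated libraries were below all stem libraries, and KO and WT overlapped in either condition. The change on differentiation was -0.73 ± 0.083, adjusted p = 1.31e-05 in KO and -0.52 ± 0.083, adjusted p = 0.000155 in WT organoids. Ly6e had normalized counts of 120672, 114346 and 109921 in KO differentiated libraries, 79986, 85243 and 79573 in WT differentiated libraries, 170318, 158097 and 140136 in KO stem libraries and 114817, 117601 and 123211 in WT stem libraries. Its KO libraries were above the WT libraries of the same condition without overlap. The excess in KO was 0.49 ± 0.081, adjusted p = 0.00219 in the differentiated condition and 0.39 ± 0.081, adjusted p = 0.0168 in the stem condition, and the stem call was lost without KO stem library 1 or 2 or WT stem library 2 (adjusted p up to 0.071). On differentiation it fell in KO (-0.44 ± 0.081, adjusted p = 0.000514) and in WT (-0.54 ± 0.081, adjusted p = 8.86e-05).

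The 5 annexins are calcium-dependent membrane-binding proteins, and 4 of them were higher in the differentiated condition of both genotypes. Of all genes tested, 34.1% were higher in the differentiated condition in KO and 36.3% in WT. Anxa1 had normalized counts of 80428, 75700 and 67390 in KO differentiated libraries, 57268, 64043 and 57177 in WT differentiated libraries, 32320, 29503 and 26106 in KO stem libraries and 24943, 19424 and 22587 in WT stem libraries. Its KO libraries were higher than its WT libraries in either condition without overlap. The KO difference was called in the differentiated condition (0.32 ± 0.11, adjusted p = 0.0462) and not in the stem condition (0.40 ± 0.11, adjusted p = 0.0527), although it was in the repeat that omits WT stem library 1 (0.48 ± 0.11, adjusted p = 0.0239). The differentiated call was lost without KO differentiated library 1 or 2 or WT differentiated library 1, 2 or 3 (adjusted p up to 0.159). On differentiation Anxa1 was higher by 1.35 ± 0.11, adjusted p = 7.33e-07 in KO and 1.42 ± 0.11, adjusted p = 3.21e-07 in WT.

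Anxa2 had normalized counts of 152168, 186282 and 170446 in KO differentiated libraries, 218463, 232752 and 199472 in WT differentiated libraries, 92073, 99666 and 90190 in KO stem libraries and 91459, 104246 and 117127 in WT stem libraries. It was lower in KO differentiated than in WT differentiated libraries without overlap (-0.36 ± 0.11, adjusted p = 0.0315), a call lost without KO differentiated library 1 or 3 or WT differentiated library 1 or 2 (adjusted p up to 0.118). On differentiation it was higher by 0.85 ± 0.11, adjusted p = 2.96e-05 in KO and 1.06 ± 0.11, adjusted p = 3.57e-06 in WT. Anxa5 had normalized counts of 29655, 29151 and 25838 in KO differentiated libraries, 26594, 26859 and 23227 in WT differentiated libraries, 11765, 12336 and 10105 in KO stem libraries and 10856, 10702 and 11249 in WT stem libraries. Genotypes overlapped in both conditions, and differentiation raised it by 1.31 ± 0.086, adjusted p = 1.56e-07 in KO and 1.22 ± 0.086, adjusted p = 1.70e-07 in WT. Anxa8 had normalized counts of 30846, 31470 and 30954 in KO differentiated libraries, 34873, 31526 and 27154 in WT differentiated libraries, 19854, 17300 and 17369 in KO stem libraries and 14445, 12410 and 12261 in WT stem libraries. Its KO stem libraries were above its WT stem libraries (0.48 ± 0.096, adjusted p = 0.0143), a call lost without KO stem library 1 or WT stem library 2 (adjusted p up to 0.0693), and in the differentiated condition KO and WT overlapped. Differentiation raised Anxa8 by 0.78 ± 0.096, adjusted p = 2.23e-05 in KO and 1.25 ± 0.096, adjusted p = 3.20e-07 in WT.

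Anxa3 went the other way in KO organoids. Normalized counts of Anxa3 were 25600, 24088 and 24001 in KO differentiated libraries, 22074, 23528 and 21871 in WT differentiated libraries, 33086, 30909 and 26585 in KO stem libraries and 28022, 21107 and 24918 in WT stem libraries. The narrow ranges of the differentiated groups lay below the KO stem range and inside the WT stem range, and the change on differentiation was -0.29 ± 0.10, adjusted p = 0.0246 in KO and -0.13 ± 0.10, adjusted p = 0.289 in WT. The KO call was lost without KO stem library 1 or 2 or KO differentiated library 2 or 3 (adjusted p up to 0.098). Without WT stem library 1, Anxa3 was higher in KO stem than in WT stem organoids (0.39 ± 0.096, adjusted p = 0.0314).

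Il33 encodes a nuclear cytokine released by damaged barrier cells, and it made the largest called fall on differentiation. Normalized counts of Il33 were 2829, 2337 and 2051 in KO differentiated libraries, 1489, 2272 and 1785 in WT differentiated libraries, 8653, 7156 and 5805 in KO stem libraries and 4805, 3860 and 4649 in WT stem libraries. All 6 differentiated libraries were below all 6 stem libraries, with changes of -1.58 ± 0.18, adjusted p = 1.23e-05 in KO and -1.28 ± 0.18, adjusted p = 5.27e-05 in WT. Its KO stem libraries were above its WT stem libraries (0.69 ± 0.18, adjusted p = 0.0449), a call lost without KO stem library 1 or 2 or WT stem library 2 or 3 (adjusted p up to 0.17). In the differentiated condition KO and WT overlapped (0.39 ± 0.18, adjusted p = 0.129).

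S100a6, S100a10 and S100a11 are small calcium-binding or annexin-binding proteins. S100a6 had normalized counts of 137308, 142016 and 128194 in KO differentiated libraries, 165524, 185124 and 157058 in WT differentiated libraries, 73937, 70509 and 61300 in KO stem libraries and 75056, 71759 and 77339 in WT stem libraries. It was lower in KO than in WT differentiated libraries without overlap (-0.32 ± 0.089, adjusted p = 0.0234), a call lost without KO differentiated library 1 or 3 or WT differentiated library 1 or 2 (adjusted p up to 0.0841), and differentiation raised it by 0.99 ± 0.089, adjusted p = 1.79e-06 in KO and 1.18 ± 0.089, adjusted p = 3.01e-07 in WT. S100a10, the partner of Anxa2 in a membrane complex, had normalized counts of 21456, 24735 and 23738 in KO differentiated libraries, 28106, 30265 and 28569 in WT differentiated libraries, 25203, 24829 and 21642 in KO stem libraries and 21212, 18779 and 23772 in WT stem libraries. It was higher in differentiated than in stem WT libraries (0.45 ± 0.092, adjusted p = 0.000898), a change not called in KO (-0.035 ± 0.092, adjusted p = 0.754), and the difference between the 2 changes was itself called (-0.49 ± 0.13, adjusted p = 0.0429). That difference was lost without 10 of the 12 libraries, with adjusted p up to 0.0994, and stayed without KO stem library 3 or WT stem library 3. KO differentiated libraries were below WT differentiated libraries without overlap (-0.32 ± 0.092, adjusted p = 0.0272), a call lost without KO differentiated library 1 or WT differentiated library 1, 2 or 3 (adjusted p up to 0.105). S100a11 had normalized counts of 85454, 88781 and 84315 in KO differentiated libraries, 87093, 97550 and 81594 in WT differentiated libraries, 62931, 55339 and 48868 in KO stem libraries and 58388, 48482 and 54609 in WT stem libraries. Genotypes overlapped, and it was higher in the differentiated condition by 0.64 ± 0.10, adjusted p = 0.000196 in KO and 0.72 ± 0.10, adjusted p = 6.05e-05 in WT.

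Gja1, the gap junction protein connexin 43, differed between genotypes in the differentiated condition. Normalized counts of Gja1 were 727, 436 and 455 in KO differentiated libraries, 163, 256 and 204 in WT differentiated libraries, 552, 374 and 439 in KO stem libraries and 556, 315 and 233 in WT stem libraries. All KO differentiated libraries were above all WT differentiated libraries, with a ratio of means of 2.6 (1.36 ± 0.31, adjusted p = 0.00913). WT stem library 1, the library with fibroblast transcripts, was the highest of its group, and the fall on differentiation in WT (-0.75 ± 0.31, adjusted p = 0.0453) was lost without WT stem library 1 or 2 or WT differentiated library 1 or 3 (adjusted p up to 0.188). It was at -0.40 ± 0.26, adjusted p = 0.188, without WT stem library 1. In KO organoids the change on differentiation was not called (0.22 ± 0.31, adjusted p = 0.537). Msln, a surface protein of the mesothelium that is also found in fetal-like epithelium, had normalized counts of 82418, 74170 and 68664 in KO differentiated libraries, 76028, 92278 and 75300 in WT differentiated libraries, 80681, 64090 and 52554 in KO stem libraries and 52140, 44637 and 47601 in WT stem libraries. Summed over 4 mesothelial markers, normalized counts were 67.8 to 132 in KO differentiated, 161 to 252 in WT differentiated, 23.4 to 51.4 in KO stem and 27.7 to 66.8 in WT stem libraries. Of these markers, Upk1b and Upk3b were higher in differentiated than in stem WT organoids (4.48 ± 0.61, adjusted p = 4.04e-05 and 2.54 ± 0.59, adjusted p = 0.00209), Lrrn4 was lower (-4.87 ± 0.45, adjusted p = 1.44e-06), and Wt1 was at most 0.734 normalized counts in any library. Their part in the Msln values was not tested. Msln was higher in differentiated than in stem WT libraries (0.75 ± 0.14, adjusted p = 0.000553), and not called in KO (0.21 ± 0.14, adjusted p = 0.215) or between genotypes.

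**Figure D3:**
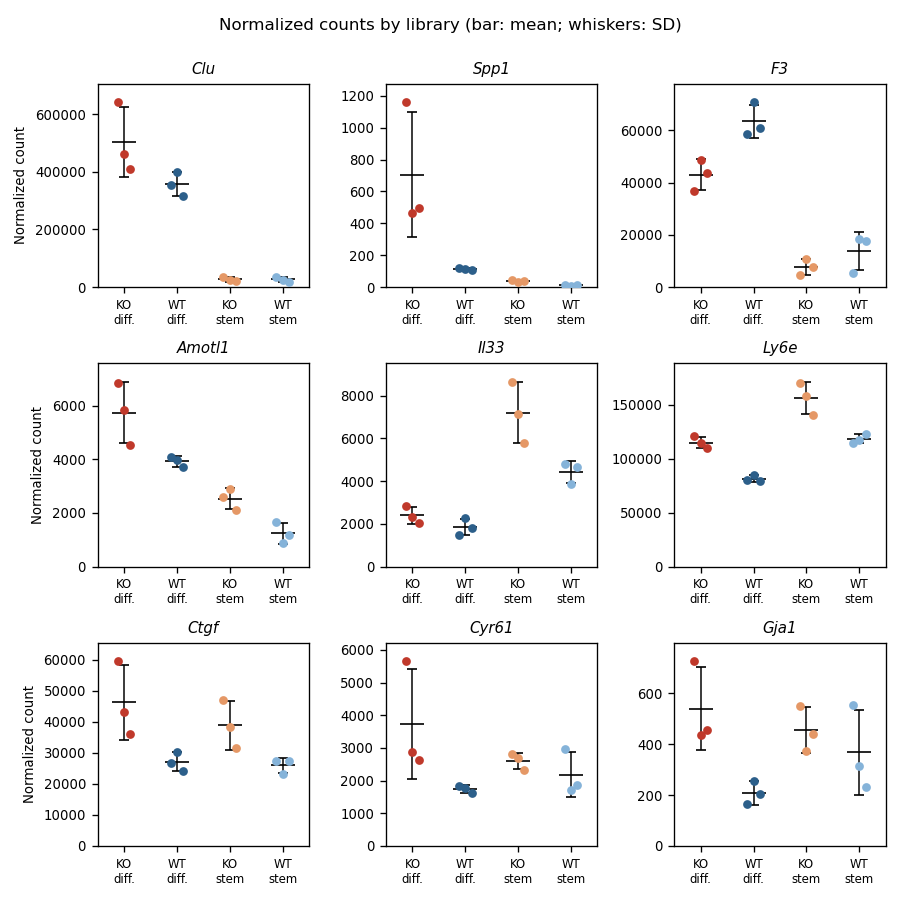
Normalized count (y axis, starting at 0) of 9 genes in each library of the 4 groups, with points for libraries 1, 2 and 3 from left to right, a bar for the mean and whiskers for the SD (n = 3). Clu and F3 are high in both differentiated groups, Il33 is high in both stem groups, and library 1 of the KO differentiated group is the highest of its group for every gene shown but F3.

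Of the 12 YAP target genes, 4 were higher in KO than in WT organoids in the differentiated condition (13.8% of all genes) and 3 in the stem condition (3.48% of all genes), and none was lower in either. Without WT stem library 1, 4 were higher and 1 lower in the stem condition (4.39% and 4.8% of all genes). In the differentiated condition 6 were then higher (2880 of 14759 genes). Their median log2 change, KO minus WT, was 0.57 in the differentiated and 0.38 in the stem condition, where it was 0.57 without WT stem library 1. Ctgf and Cyr61 encode secreted matricellular proteins and are the targets most often read as YAP activity. Ctgf had normalized counts of 59491, 43087 and 36026 in KO differentiated libraries, 26724, 30214 and 24142 in WT differentiated libraries, 47047, 38125 and 31379 in KO stem libraries and 27411, 23102 and 27390 in WT stem libraries. Its KO libraries were above its WT libraries without overlap in both conditions. The difference was called in the differentiated condition (0.75 ± 0.18, adjusted p = 0.0126), except without WT differentiated library 3 (adjusted p up to 0.056), and not in the stem condition (0.57 ± 0.18, adjusted p = 0.0885). Ctgf was not called between conditions in KO (0.24 ± 0.18, adjusted p = 0.268) or WT (0.056 ± 0.18, adjusted p = 0.794).

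Cyr61 had normalized counts of 5660, 2881 and 2639 in KO differentiated libraries, 1840, 1776 and 1613 in WT differentiated libraries, 2813, 2677 and 2340 in KO stem libraries and 2972, 1713 and 1863 in WT stem libraries. KO differentiated library 1 was higher than the other KO differentiated libraries added together, and all 3 were above the WT differentiated libraries, by a ratio of means of 2.14 (1.01 ± 0.26, adjusted p = 0.017). The call was lost without WT differentiated library 3 (adjusted p up to 0.064). In the stem condition KO and WT overlapped (0.30 ± 0.26, adjusted p = 0.517), with WT stem library 1 the highest of the 6. Without that library they did not overlap, and the change was 0.54 ± 0.26, adjusted p = 0.191. Cyr61 was not called between conditions in KO (0.43 ± 0.26, adjusted p = 0.171) or WT (-0.28 ± 0.26, adjusted p = 0.353).

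Amotl1 and Amotl2 belong to the angiomotin family, whose proteins tether YAP at cell junctions. Amotl1 had normalized counts of 6840, 5837 and 4544 in KO differentiated libraries, 4097, 3963 and 3709 in WT differentiated libraries, 2578, 2883 and 2113 in KO stem libraries and 1661, 889.8 and 1174 in WT stem libraries. Every KO library was above every WT library of the same condition. The difference was called in the stem condition (1.06 ± 0.21, adjusted p = 0.0132) and not in the differentiated condition (0.53 ± 0.21, adjusted p = 0.0783). The stem call was lost without KO stem library 1 or 2 (adjusted p up to 0.0621). Differentiation raised Amotl1 by 1.18 ± 0.21, adjusted p = 0.000364 in KO and 1.70 ± 0.21, adjusted p = 1.58e-05 in WT.

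Amotl2 had normalized counts of 6319, 3994 and 3844 in KO differentiated libraries, 3131, 3082 and 2803 in WT differentiated libraries, 10189, 8869 and 7102 in KO stem libraries and 6517, 4144 and 4719 in WT stem libraries. It too was higher in every KO library than in every WT library of the same condition, and unlike Amotl1 it fell on differentiation, with log2 changes of -0.91 ± 0.21, adjusted p = 0.00219 in KO and -0.75 ± 0.21, adjusted p = 0.00669 in WT. The KO difference was 0.61 ± 0.21, adjusted p = 0.047 in the differentiated condition, a call lost without KO differentiated library 1 or 2 or WT differentiated library 1, 2 or 3 (adjusted p up to 0.179). In the stem condition it was 0.78 ± 0.21, adjusted p = 0.0477, a call lost without KO stem library 1 or 2 or WT stem library 2 or 3 (adjusted p up to 0.175). It was larger without WT stem library 1 (0.96 ± 0.20, adjusted p = 0.0168).

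Ankrd1, an ankyrin repeat protein of the nucleus and sarcomere, was called between conditions and not between genotypes. Normalized counts of Ankrd1 were 954, 504 and 517 in KO differentiated libraries, 335, 370.3 and 379 in WT differentiated libraries, 398, 252 and 221 in KO stem libraries and 233, 90.9 and 182 in WT stem libraries. KO differentiated libraries were above WT differentiated libraries without overlap, and the stem groups overlapped. The KO difference was not called in the differentiated (0.80 ± 0.35, adjusted p = 0.108) or the stem condition (0.84 ± 0.35, adjusted p = 0.167). Differentiation raised Ankrd1 by 1.16 ± 0.35, adjusted p = 0.0111 in KO and 1.20 ± 0.35, adjusted p = 0.00856 in WT.

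Ajuba, a LIM-domain protein that restrains LATS kinases, had normalized counts of 13586, 10494 and 10114 in KO differentiated libraries, 9208, 9663 and 8288 in WT differentiated libraries, 8304, 6962 and 6291 in KO stem libraries and 9278, 5824 and 6192 in WT stem libraries. It was higher in differentiated than in stem KO libraries (0.66 ± 0.17, adjusted p = 0.00522), and in WT the change was not called (0.38 ± 0.17, adjusted p = 0.0676) but was called when WT stem library 1 was left out (0.59 ± 0.14, adjusted p = 0.00268). Ptpn14, a phosphatase that binds YAP, had normalized counts of 7221, 4511 and 4284 in KO differentiated libraries, 2768, 2693 and 2689 in WT differentiated libraries, 6973, 5102 and 5687 in KO stem libraries and 5739, 3631 and 4121 in WT stem libraries. WT differentiated libraries were close to each other and below every other library, and KO differentiated library 1 was the highest of the 12. Ptpn14 was higher in KO than in WT differentiated organoids (0.93 ± 0.20, adjusted p = 0.00788), by a ratio of means of 1.97, and fell on differentiation in WT (-0.70 ± 0.20, adjusted p = 0.00907) with no call in KO (-0.18 ± 0.20, adjusted p = 0.458). The difference between those changes was not called (0.52 ± 0.29, adjusted p = 0.27).

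Lats2, a Hippo kinase that is itself induced by YAP, had normalized counts of 2060, 1508 and 1492 in KO differentiated libraries, 1605, 1487 and 1531 in WT differentiated libraries, 1723, 1493 and 1393 in KO stem libraries and 1402, 1094 and 1109 in WT stem libraries. Its one call was a rise on differentiation in WT (0.37 ± 0.14, adjusted p = 0.0295), lost without WT stem library 2 or 3 or WT differentiated library 1 or 3 (adjusted p up to 0.0981). Crim1, a transmembrane protein that binds bone morphogenetic proteins, had normalized counts of 4156, 3525 and 3537 in KO differentiated libraries, 3670, 3216 and 3518 in WT differentiated libraries, 4970, 4267 and 4105 in KO stem libraries and 3743, 3113 and 3285 in WT stem libraries. In the stem condition all KO libraries were above all WT libraries (0.40 ± 0.098, adjusted p = 0.0371), a call lost without KO stem library 1 or 2 or WT stem library 2 or 3 (adjusted p up to 0.146). On differentiation it fell in KO (-0.25 ± 0.098, adjusted p = 0.0406), a call lost without KO stem library 1 or 2 or KO differentiated library 2 or 3 (adjusted p up to 0.166). Crim1 shares exon sequence with Fez2 on the opposite strand, which had 808 to 1858 normalized counts, and whether the counting used strand is not stated in the sources used here.

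F3, the tissue factor that starts blood clotting, was the YAP target with the largest called change on differentiation. Normalized counts of F3 were 36698, 48787 and 43851 in KO differentiated libraries, 58505, 70800 and 61050 in WT differentiated libraries, 4463, 10734 and 7892 in KO stem libraries and 5328, 18289 and 17779 in WT stem libraries. All differentiated libraries were above all stem libraries, by 2.57 ± 0.42, adjusted p = 0.000228 in KO and 2.40 ± 0.42, adjusted p = 0.00032 in WT. Library 1 was the lowest of its group in both stem groups, and WT stem library 1 was below KO stem libraries 2 and 3. F3 was not called between genotypes in the differentiated condition (-0.56 ± 0.42, adjusted p = 0.347), where KO libraries were below WT libraries without overlap, or in the stem condition (-0.73 ± 0.42, adjusted p = 0.312). Without WT stem library 1 it was lower in KO stem organoids (-1.32 ± 0.28, adjusted p = 0.0179), the only member lower there. Nuak2, a stress kinase related to AMPK, had normalized counts of 2082, 1767 and 1798 in KO differentiated libraries, 2188, 1804 and 2019 in WT differentiated libraries, 1291, 1044 and 1012 in KO stem libraries and 1537, 1111 and 983 in WT stem libraries. It was higher in the differentiated condition by 0.76 ± 0.15, adjusted p = 0.00104 in KO and 0.75 ± 0.15, adjusted p = 0.001 in WT, and genotypes overlapped.

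Axl, a receptor tyrosine kinase of mesenchymal cells and some epithelia, was called in no comparison. With the number as a replicate block, it was called lower in differentiated than in stem WT organoids. It had 536 normalized counts in WT stem library 1 and between 4.54 and 31.6 in the other 11 libraries. KO against WT in the stem condition, its log2 change was -0.50 ± 1.15, adjusted p = 0.824, and it turned to 1.35 ± 0.37, adjusted p = 0.0481, without WT stem library 1. WT stem libraries 2 and 3, which are left in that repeat, hold only 7 and 12 recovered reads of Axl. With all libraries the log2 change was -2.62 in edgeR and -2.71 in DESeq2. No called change of another of the 35 genes reversed in any repeat.

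Values also differed between libraries of 1 group in a way that many of the genes shared. Library 1 held the highest value of its group for 25 of the 35 genes in KO differentiated, 15 of 35 in WT differentiated, 25 of 35 in KO stem and 26 of 35 in WT stem organoids. Over all genes tested, library 1 was the highest for 44.7% in KO differentiated, 35.4% in WT differentiated, 39.1% in KO stem and 47.0% in WT stem organoids. Of the 12 YAP targets, 11 were highest in library 1 in KO differentiated, 8 in WT differentiated, 9 in KO stem and 11 in WT stem organoids. No test was made of these counts, and genes of 1 library are not replicates. Labels do not say what library 1 of the 4 groups has in common.

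Of the 8 genes for YAP, TAZ, the TEAD factors and their direct regulators, 3 were higher and 1 lower in KO in the differentiated condition and 1 was higher in the stem condition, with 12 libraries and without WT stem library 1. Of all genes tested, 13.8% were higher and 13.9% lower in KO differentiated organoids, and 3.48% higher in KO stem organoids, with 12 libraries. Per kilobase of exon, Yap1 was at 953 to 1038 normalized counts in KO differentiated, 887 to 929 in WT differentiated, 754 to 824 in KO stem and 752 to 880 in WT stem libraries, above all 4 TEAD genes in every group. Normalized counts of Yap1 were 9605, 9064 and 8826 in KO differentiated libraries, 8527, 8602 and 8211 in WT differentiated libraries, 7623, 7174 and 6981 in KO stem libraries and 8142, 7171 and 6963 in WT stem libraries. It was higher in the differentiated condition by 0.34 ± 0.065, adjusted p = 0.000739 in KO and 0.19 ± 0.065, adjusted p = 0.0214 in WT, the WT call being lost without WT stem library 2 or 3 or WT differentiated library 1 or 2 (adjusted p up to 0.0887), and was not called between genotypes. Wwtr1, which encodes TAZ, had normalized counts of 3542, 2727 and 2551 in KO differentiated libraries, 2306, 2083 and 1924 in WT differentiated libraries, 4776, 4715 and 4791 in KO stem libraries and 3717, 3165 and 3713 in WT stem libraries. KO libraries were above WT libraries of the same condition without overlap. The KO difference was 0.47 ± 0.11, adjusted p = 0.0125 in the differentiated condition, a call lost without WT differentiated library 3 (adjusted p up to 0.0578). In the stem condition it was 0.43 ± 0.11, adjusted p = 0.0464, a call lost without KO stem library 1, 2 or 3 or WT stem library 2 or 3 (adjusted p up to 0.142). Opposite to Yap1, Wwtr1 fell on differentiation, with log2 changes of -0.71 ± 0.11, adjusted p = 0.000192 in KO and -0.75 ± 0.11, adjusted p = 0.000107 in WT.

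Tead2 was the TEAD gene called between genotypes. Normalized counts of Tead2 were 2413, 1452 and 1202 in KO differentiated libraries, 807, 725 and 731 in WT differentiated libraries, 289, 287 and 331 in KO stem libraries and 641, 571 and 345 in WT stem libraries. KO differentiated libraries were the highest of the 12 and KO stem libraries the lowest, with no overlap between any groups of the same condition. Tead2 was higher in KO than in WT differentiated organoids (1.10 ± 0.25, adjusted p = 0.00989), by a ratio of means of 2.24, and was at -0.73 ± 0.25, adjusted p = 0.107, in the stem condition, where its ratio was 0.583. The difference between these effects was called (1.83 ± 0.36, adjusted p = 0.0166) and stayed without each library in turn, with adjusted p up to 0.0489. On differentiation Tead2 was 5.59-fold higher in KO (2.42 ± 0.25, adjusted p = 6.38e-06) and 1.45-fold in WT (0.59 ± 0.25, adjusted p = 0.0563), a change not called in WT with 12 libraries and called when WT stem library 1 was left out (0.76 ± 0.27, adjusted p = 0.0242). It overlaps exons of the leukocyte gene Cd37 on the opposite strand, which had at most 6.82 normalized counts.

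Tead3 had normalized counts of 1689, 1654 and 1797 in KO differentiated libraries, 1827, 1609 and 1656 in WT differentiated libraries, 1615, 1525 and 1459 in KO stem libraries and 1594, 1488 and 1375 in WT stem libraries. Its one call was a rise on differentiation in WT (0.19 ± 0.075, adjusted p = 0.0374), lost without WT stem library 2 or 3 or WT differentiated library 1 or 3 (adjusted p up to 0.153). Tead4 had normalized counts of 1082, 1199 and 1220 in KO differentiated libraries, 1112, 1212 and 1061 in WT differentiated libraries, 1723, 1726 and 1729 in KO stem libraries and 2005, 1456 and 1572 in WT stem libraries. It fell on differentiation, with log2 changes of -0.57 ± 0.11, adjusted p = 0.000575 in KO and -0.56 ± 0.11, adjusted p = 0.000537 in WT, without overlap, and was not called between genotypes. Tead1 was called in no comparison and lay between 4287 and 5464 normalized counts in all 12 libraries. Per kilobase of exon, Tead2 was the lowest TEAD gene in both stem groups, at 59.9 to 69.1 in KO stem and 72.1 to 134 in WT stem libraries, and reached 251 to 504 in KO differentiated libraries, a range that overlapped Tead1, Tead3 and Tead4 there.

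Vgll4 competes with YAP for the TEAD proteins. Normalized counts of Vgll4 were 4787, 3588 and 3664 in KO differentiated libraries, 3061, 2790 and 2569 in WT differentiated libraries, 4007, 3550 and 3517 in KO stem libraries and 4337, 4388 and 4077 in WT stem libraries. In the differentiated condition KO libraries were above WT libraries (0.51 ± 0.11, adjusted p = 0.00675), and in the stem condition they were below them, with no call (-0.21 ± 0.11, adjusted p = 0.251), both without overlap. The difference between the effects was called (0.72 ± 0.15, adjusted p = 0.0205), except without KO stem library 2 or WT differentiated library 3 (adjusted p up to 0.0599). Vgll4 fell on differentiation in WT (-0.61 ± 0.11, adjusted p = 0.000315) and was not called in KO (0.11 ± 0.11, adjusted p = 0.381). Lats1, the other LATS kinase, had normalized counts of 4879, 4897 and 4816 in KO differentiated libraries, 5519, 5633 and 5692 in WT differentiated libraries, 4480, 4570 and 5208 in KO stem libraries and 5031, 4723 and 5128 in WT stem libraries. It was slightly lower in KO than in WT differentiated organoids (-0.21 ± 0.061, adjusted p = 0.0275), a call lost without any 1 of the 6 libraries (adjusted p up to 0.0891), and was higher in the differentiated condition in WT (0.18 ± 0.061, adjusted p = 0.0192), a call lost without WT stem library 2 or WT differentiated library 3 (adjusted p up to 0.0761).

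**Figure D4:**
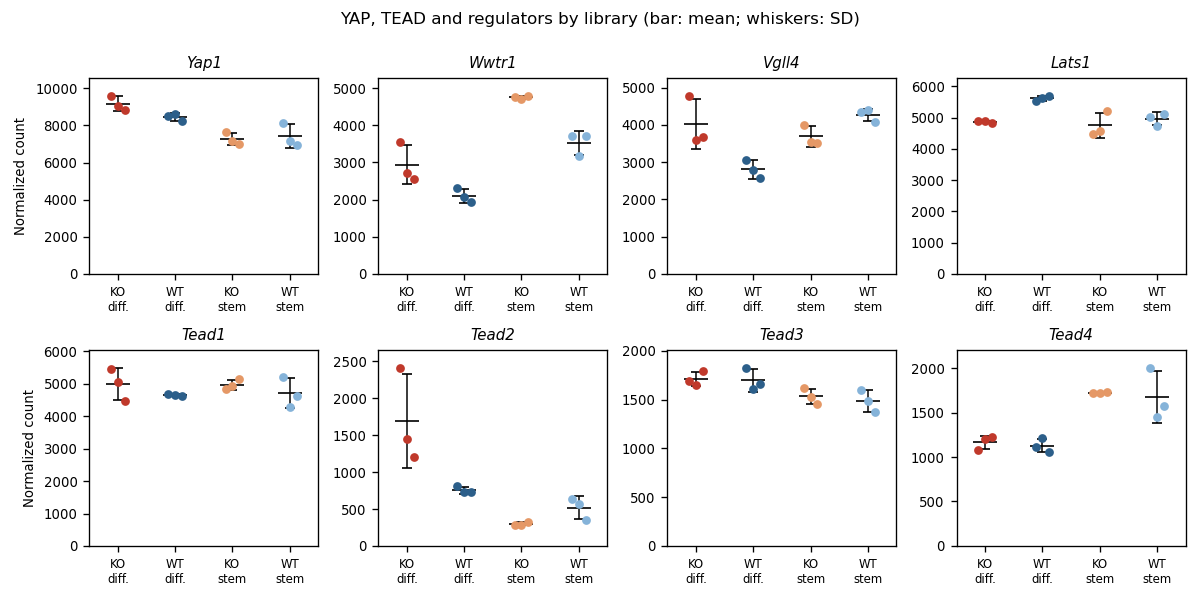
Normalized count (y axis, starting at 0) of Yap1, Wwtr1, Vgll4, Lats1 and the 4 TEAD genes in each library of the 4 groups, with points for libraries 1, 2 and 3 from left to right, a bar for the mean and whiskers for the SD (n = 3). Tead2 is highest in the KO differentiated group (1202 to 2413) and lowest in the KO stem group (287 to 331), while Tead1 and Tead3 lie in 1 band across the groups.

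Other genes of the same programmes were mixed. Of 20 upstream Hippo genes, 19 were tested. KO against WT, 3 were higher and 3 lower in the differentiated condition, shares near the 13.8% and 13.9% of all genes. In the stem condition 1 was higher with or without WT stem library 1 (3.48% and 4.39% of all genes). Frmd6, a FERM-domain protein that activates the pathway, was the one higher in both, by 0.68 ± 0.16, adjusted p = 0.0104 in the differentiated and 0.63 ± 0.16, adjusted p = 0.0392 in the stem condition. The other calls in the differentiated condition were Amot (0.60 ± 0.14, adjusted p = 0.00915) and Wwc2 (0.36 ± 0.12, adjusted p = 0.0491), which were higher, and the giant cadherin Fat1 (-0.59 ± 0.17, adjusted p = 0.0272), the kinase gene Stk3 (-0.22 ± 0.074, adjusted p = 0.0491) and the kinase co-activator Mob1b (-0.19 ± 0.064, adjusted p = 0.0493), which were lower. On differentiation 9 of the 19 were higher and 1 lower in KO (34.1% and 33.6% of all genes). In WT, 11 were higher and 1 lower (36.3% and 35.9%).

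Of 12 other YAP targets, 11 were tested, with 2 higher and 2 lower in KO differentiated organoids and 3 higher and 1 lower in KO stem organoids. In KO stem organoids, 2 were higher and 1 lower once WT stem library 1 was left out. Of all genes tested, 13.8% and 13.9% were higher and lower in KO differentiated and 3.48% and 3.09% in KO stem organoids. Without WT stem library 1 the stem shares were 4.39% and 4.8%. Tgfb2, a ligand of the TGF-beta family, had normalized counts of 78.5, 53.5 and 59.3 in KO differentiated libraries, 22.1, 15.5 and 22.7 in WT differentiated libraries, 71.6, 90.3 and 73.3 in KO stem libraries and 37.5, 21.1 and 23.1 in WT stem libraries. The excess in KO was 1.62 ± 0.26, adjusted p = 0.00211 in the differentiated and 1.53 ± 0.26, adjusted p = 0.00668 in the stem condition, without overlap. Arhgef17 was also higher in both (0.97 ± 0.14, adjusted p = 0.00132 and 0.56 ± 0.14, adjusted p = 0.0398), and Dock5 lower in both (-0.68 ± 0.10, adjusted p = 0.00146 and -0.43 ± 0.10, adjusted p = 0.0306). Asap1 was lower in KO in the differentiated condition (-0.36 ± 0.06, adjusted p = 0.00221) and higher in the stem condition (0.22 ± 0.06, adjusted p = 0.0491), a call lost without WT stem library 1 (adjusted p = 0.0652), and the difference was called (-0.59 ± 0.085, adjusted p = 0.00975). On differentiation 6 of the 11 were higher and none lower in KO (34.1% and 33.6% of all genes). In WT, 5 were higher and 2 lower (36.3% and 35.9%).

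All 12 of the other fetal-like and regenerative genes were tested. In the differentiated condition 2 were higher and 3 lower in KO (13.8% and 13.9% of all genes). In the stem condition 1 was higher (3.48%). With WT stem library 1 left out, Krt4 and Basp1 were higher and Areg, Ereg and Il1rn lower in KO stem organoids. These were 2 and 3 genes, with 4.39% and 4.8% of all genes. Krt4, a keratin of stratified epithelium, had normalized counts of 10872, 15017 and 13038 in KO differentiated libraries, 6146, 7568 and 7003 in WT differentiated libraries, 57771, 50467 and 34226 in KO stem libraries and 21662, 16066 and 21132 in WT stem libraries. The excess in KO was 0.90 ± 0.19, adjusted p = 0.00647 in the differentiated and 1.25 ± 0.19, adjusted p = 0.00324 in the stem condition, without overlap. Lower in KO differentiated organoids were Emp1 (-1.13 ± 0.17, adjusted p = 0.00133), Il1rn, the antagonist of interleukin-1 (-0.72 ± 0.14, adjusted p = 0.00468), and Lamb3, a laminin chain (-0.29 ± 0.073, adjusted p = 0.0137). On differentiation 7 were higher and 2 lower in each genotype, with 34.1% and 33.6% of all genes in KO and 36.3% and 35.9% in WT.

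The repeat without WT stem library 1 left 14759 genes for testing and 11 libraries. All 8 genes that were higher in KO stem organoids with 12 libraries were higher without it as well. Anxa1, Anxa3 and Axl joined them, and F3 was lower. The difference between the KO effects in the 2 conditions gained a call for Anxa8 (-0.55 ± 0.13, adjusted p = 0.0256) and lost that of S100a10 (-0.49 ± 0.14, adjusted p = 0.0504). The median log2 change of the 35 genes, KO stem minus WT stem, was 0.37 without the library and 0.17 with it, and over all genes it was -0.031 and -0.040. Among fibroblast markers, WT stem library 1 had 13196 normalized counts of Vim and 4788 of Col1a1. The part of these transcripts in the members' values was not tested.

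**Figure D5:**
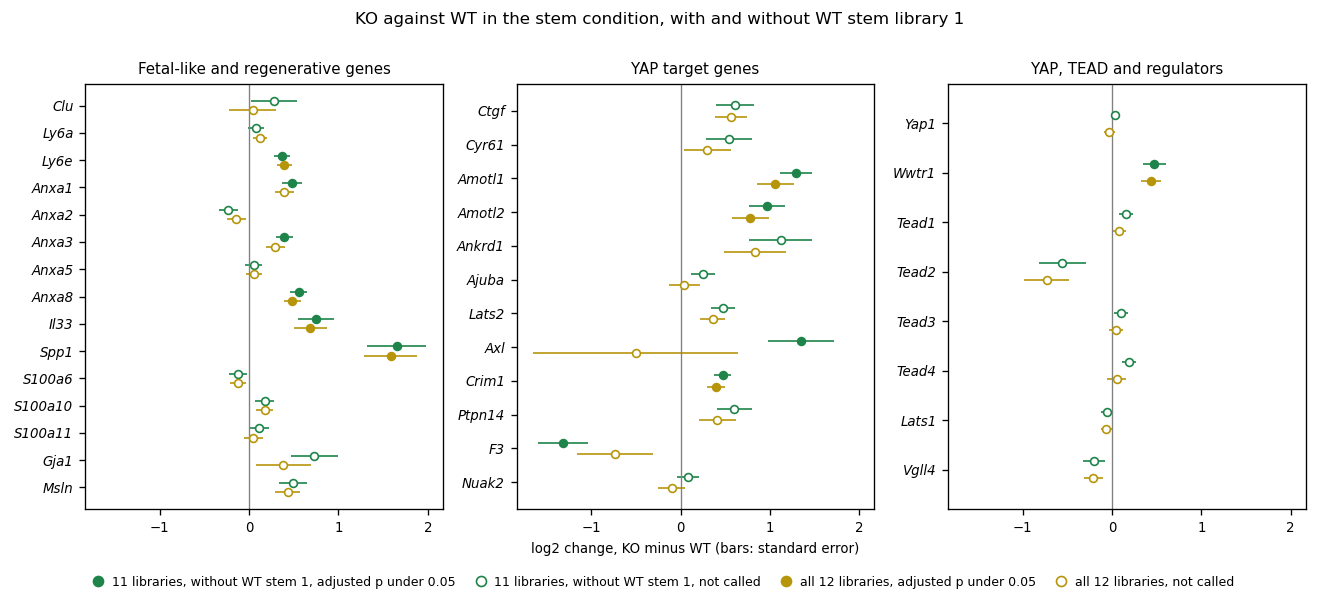
Log2 change between KO and WT organoids in the stem condition (x axis, KO minus WT) for the 35 genes, from the 11 libraries without WT stem library 1 (green) and from all 12 libraries (yellow), with standard errors as bars and filled points for an adjusted p under 0.05. Axl is at 1.35 without the library and -0.50 with it, F3 is at -1.32 and -0.73, and Yap1 and Lats1 stay near 0.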

How the data were processed

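The deposited table gives normalized counts, a signal that the authors obtained by dividing gene counts by size factors. Submitters' processing notes name GRCm38, Bowtie2, RSEM 1.2.11 and DESeq2 1.18.1. Dividing by the step of each library gave whole reads for 100% of values (tolerance 0.05 of 1 read), the recovered reads. GENCODE vM21 matched 99.1% of the identifiers. Normalized counts were fitted as log2(value + 1) with limma 3.58.1 (R 4.3.3), with 4 group means, a mean-variance trend and two-sided tests over 14856 genes. edgeR 4.0.16 on recovered reads called 2301 genes higher and 1791 lower in KO differentiated organoids, where limma called 2045 and 2058. In KO stem organoids it called 635 and 308, DESeq2 1.42.0 called 840 and 1144, and limma 517 and 459. Alternatives were other pseudocounts, filters and scalings, a replicate block and omission of each library. Deviations of same-numbered stem and differentiated libraries correlated at 0.191 to 0.286 in KO and 0.0552 to 0.145 in WT. Differently numbered libraries were at -0.211 to -0.00925 in KO and -0.103 to 0.0111 in WT. Same-numbered libraries were thus closer in both genotypes, more weakly in WT. Values in every library are printed for members called at least once with a group mean of at least 50. The members and lists were chosen with earlier results of these data known. The fit was tested on simulated data. The values of 1 gene counted among the other fetal-like and regenerative genes are not reported here.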

Additional observations from a re-analysis of the deposited data

Results flagged for a closer look

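The difference between the KO effect in the differentiated and in the stem condition passed the limma test for 3 of the 35 genes and for 1 gene of the other lists. Of all genes tested, 5.12% passed with a positive and 3.58% with a negative difference. The difference was 1.83 on the log2 scale for Tead2 (adjusted p = 0.0166) and 0.72 for Vgll4 (adjusted p = 0.0205), whose KO effects were positive in the differentiated and negative, uncalled, in the stem condition. It was -0.49 for S100a10 (adjusted p = 0.0429), whose KO effect was negative in the differentiated condition. For Asap1 it was -0.59 (adjusted p = 0.00975). The Tead2 call stayed without each library in turn.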

How the results depend on the processing

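The count of genes higher in KO stem organoids, 8, was 4 with no filter on low values, 1 with only the groups compared in the fit, and 0 to 11 without each library. Over all genes tested, the count of 517 was 406 of 26118 with no filter, 166 with only the groups compared, and 193 to 656 without each library. The count lower there, 0, was 1 with DESeq2, 1 with the fit and filter repeated without WT stem library 1, and 0 to 1 without each library. Over all genes, the 459 lower were 1144 with DESeq2, 709 in that repeat, and 170 to 709 without each library. In KO differentiated organoids, the 11 higher became 6 to 12 without each differentiated library and 13 in the whole repeat without WT stem library 1. The 4 lower became 0 to 3 without each differentiated library and 0 after quantile normalization, where the split was 13 higher and 0 lower. Over all genes, 1983 were higher and 1667 lower after quantile normalization. For the difference between the KO effects, the 2 higher became 1 to 2 without each library. The 1 lower became 2 with a pseudocount of 5, with a mean of at least 50 or with edgeR, 3 with DESeq2, 0 with no filter or after quantile normalization, and 0 to 2 without each library. Over all genes, the 760 higher became 207 to 922 without each library, and the 532 lower became 135 to 681. The 532 lower were 584 with a pseudocount of 5, 573 of 12179 with a mean of at least 50 and 546 with edgeR. They were 944 with DESeq2, 301 of 26118 with no filter and 426 after quantile normalization. Axl, at -0.50 in KO stem organoids, was at -1.62 to 1.35 without each library and at 1.35 in the whole repeat without WT stem library 1. The cause was not tested, beyond the fewer genes or samples in each repeat.

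With the number as a replicate block over all libraries, 15 genes were higher and 4 lower in KO differentiated organoids, 11 and 0 in KO stem organoids, 15 and 8 in differentiated against stem KO organoids and 20 and 10 in WT, and the difference between the KO effects was called for 2 and 3. Over all genes tested with that block, 2532 were higher and 2463 lower in KO differentiated and 748 and 738 in KO stem organoids. On differentiation 5269 and 5178 were in KO and 5581 and 5500 in WT. The difference between the KO effects was called for 1274 and 867 of all genes. Blocked within genotype, the KO condition comparison lost and gained no call among the 35 genes, and the WT one gained Ajuba, Axl and Tead2. For the difference between the KO effects, S100a10 lost its call and Anxa8 gained one. Counts of members on differentiation stayed within 1.5 times in all alternatives run, and 21 of 23 calls in KO and 22 of 27 in WT stayed in all of them. Depth limits Axl, whose WT differentiated values are near the 3-read floor of 2.29 to 6.81 normalized counts per library. WT stem libraries 2 and 3 hold 7 and 12 recovered reads of Axl, which limits its stem comparison without WT stem library 1. Depth also limits Spp1 in WT stem libraries, with 8, 9 and 11 recovered reads.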

Other observations

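F3 was not alone in being low in library 1 of both stem groups. Areg, the EGF receptor ligand amphiregulin, had normalized counts of 1721, 4374 and 3623 in KO stem libraries and 1909, 5826 and 6810 in WT stem libraries. Gadd45a, a stress-response gene, had normalized counts of 764, 2450 and 1919 in KO stem libraries and 447, 3329 and 3529 in WT stem libraries. Nt5e, the ecto-enzyme CD73, had normalized counts of 32.3, 117 and 85.5 in KO stem libraries and 26.1, 159.6 and 199 in WT stem libraries. In each of these genes library 1 was below both other libraries of its group. They were picked after their values were seen, and no test was made.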
